A study of Rattus norvegicus with 12 samples.

Results

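The Notch pathway genes described here were 3 receptors (Notch1, Notch2 and Notch3), 3 ligands (Jag1, Jag2 and Dll1) and 4 transcriptional targets (Hes1, Hey1, Hey2 and Heyl). Their rows were found by symbol, and all 10 were among the 12271 genes listed. RNA was sequenced from primary cardiac fibroblasts of Sprague Dawley rats at postnatal day 2, cultured and transfected with siRNA, short RNA duplexes that lower the messenger RNA they match. The 4 groups of 3 libraries received universal negative control siRNA, Yap siRNA, Wwtr1 siRNA, or both together (Yap+Wwtr1 siRNA, called double knockdown here). The siRNA dose is given as 25 nM. Whether this was per target or in total in the double knockdown is not stated, so siRNA load or dose per target may differ there. The labels give collection at 48 h after transfection. The study's methods count the same interval from a change of medium made after transfection, so the time since transfection is not certain. All groups had been dissociated, separated on a Percoll gradient and grown in serum. Each replicate came from separate pooled litters, so no library stands for 1 animal. For the double knockdown, the label for the siRNA names the Wwtr1 siRNAs only, and the series design text speaks of myocytes where its title and sample labels say fibroblasts. The groups follow the sample titles.

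Notch receptors sit on the cell surface and are switched on by ligands of the Jagged and Delta families on neighbouring cells. Binding leads to cleavage by an ADAM protease and then by gamma-secretase, and the freed intracellular domain enters the nucleus, joins the DNA-binding protein RBPJ and turns on genes such as Hes1 and the Hey genes, which encode basic helix-loop-helix repressors. In the heart the pathway is known for its roles in the endocardium, the valves and the vessel wall, where Notch3 is typical of pericytes and smooth muscle cells. Yap (gene Yap1) and Wwtr1, also called TAZ, are coactivators that bind TEAD transcription factors and are held back by the Hippo kinases. The comparisons addressed which genes changed when either coactivator was depleted and which changed when both were depleted.

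Values are normalized counts, that is, counts divided by a size factor for each library, whose totals ran from 33.9 to 41.1 M. They were not divided by transcript length, so levels were compared between groups and not between genes. Yap1 was at 2984 to 3776 normalized counts in the negative siRNA libraries, 532 to 625 with Yap siRNA, 3151 to 3184 with Wwtr1 siRNA, and 713, 739 and 1474 under both siRNAs. Wwtr1 was at 2280 to 2565 with negative siRNA, 2134 to 2500 with Yap siRNA, 524 to 637 with Wwtr1 siRNA, and 818, 731 and 1056 under both siRNAs. Both targets were thus lowest where their siRNA was labelled. Double knockdown replicate 3 stood apart from its group, with the highest Yap1 and Wwtr1 and a summed macrophage marker level of 27589 against 4261 and 8395 in the other double knockdown libraries. The main values of the named Notch and pathway genes in that group are therefore also given without it.

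**Figure D1:**
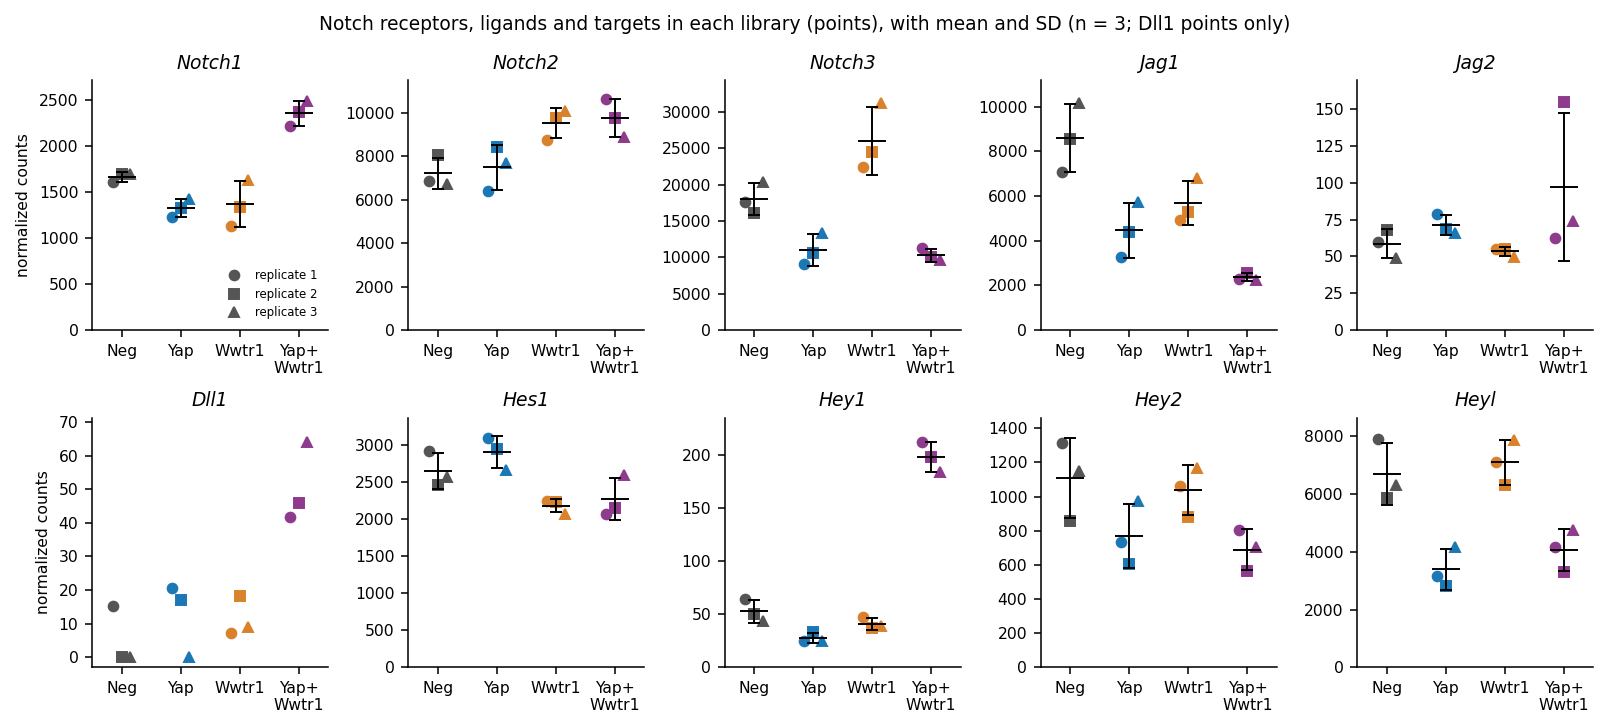
Normalized counts of the 10 Notch genes (vertical axes, linear, each gene with its own range) in the 4 siRNA groups. Circles, squares and triangles are replicates 1, 2 and 3, the long bar is the mean and the whiskers are the SD (n = 3; Dll1, listed at 0 in some libraries, is shown as points only). Hey1 sits between 183 and 212 in the double knockdown and at most at 64.6 elsewhere, while Jag1 falls below every other library in the double knockdown.

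The Notch genes moved in different directions. Dll1 met the minimum mean count only through the double knockdown, where it was high, so it had to differ there and is left out of that group's counts. In the double knockdown against negative siRNA, 7 of the other 9 genes passed the limma test at an adjusted p of 0.05. Of these, 3 were higher (Notch1, Notch2 and Hey1) and 4 were lower (Notch3, Jag1, Hey2 and Heyl), where 32.8% of all genes tested passed (17.1% higher and 15.6% lower). Without double knockdown replicate 3, 8 of the 9 passed, against 34.2% of all genes in that fit. With Yap siRNA 3 genes passed, all lower (Notch3, Jag1 and Heyl), against 4.8% of all genes (3.02% higher and 1.78% lower). With Wwtr1 siRNA only Notch2 passed, higher, against 8.96% of all genes (5.0% higher and 3.96% lower). These counts of 3 and 1 did not hold with the replicate block over the 3 groups outside the double knockdown, whose numbers pair their libraries. With it 5 genes passed with Yap siRNA, all lower (Notch1 and Hey2 besides those above), against 16.0% of all genes, and 5 with Wwtr1 siRNA (Notch2 and Notch3 higher, Notch1, Jag1 and Hes1 lower), against 21.3%. The median log2 fold change of the 10 genes was −0.43 after Yap siRNA and −0.10 after Wwtr1 siRNA. In the double knockdown, with Dll1 set aside, the middle value was that of Hes1 (−0.23). The medians of all genes were −0.004, 0.005 and 0.004 after Yap siRNA, Wwtr1 siRNA and both. The median size of the change, sign set aside, was 0.63 and 0.32 in the 10 genes after Yap and Wwtr1 siRNA. In the double knockdown without Dll1 the middle size was that of Hey2 (−0.68). In all genes the median sizes were 0.158, 0.175 and 0.271. These comparisons share the 3 negative siRNA libraries, so they are not independent of each other.

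**Figure D2:**
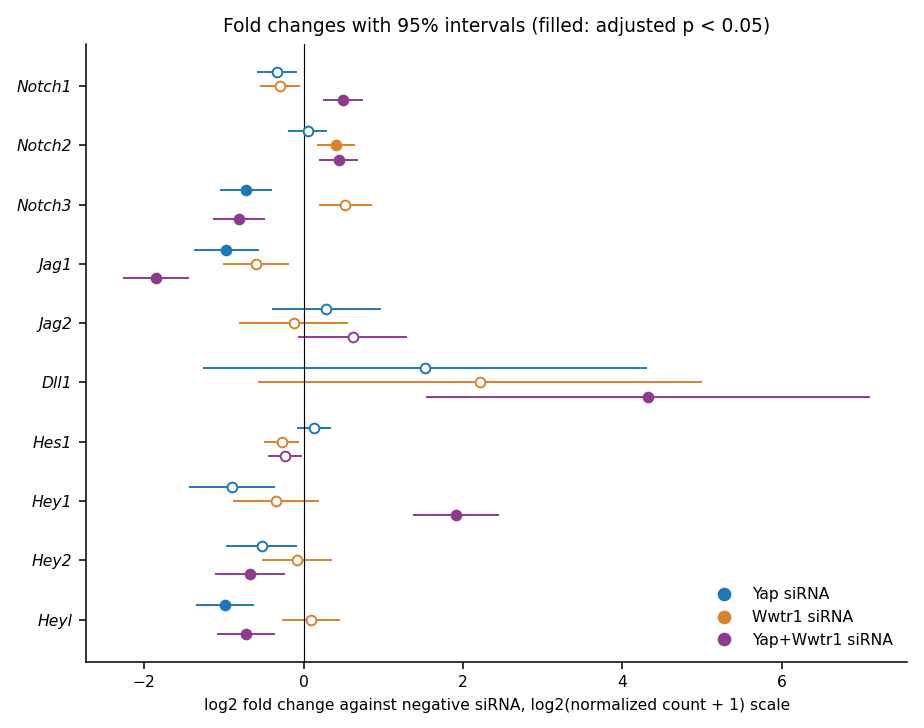
Log2 fold changes against negative siRNA (horizontal axis, log2 of normalized count + 1) of the 10 Notch genes with Yap, Wwtr1 and Yap+Wwtr1 siRNA, with 95% intervals from the limma fit. Filled points passed at an adjusted p of 0.05 (that of Dll1 is a description only). Notch3 and Heyl were shifted to the left with Yap siRNA and with both siRNAs but not with Wwtr1 siRNA, and Hey1 and Notch1 lay to the right with both siRNAs.

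The promoter sequences of the genes whose values carry these results were taken from RefSeq, assembly GRCr8. The deposited counts were made on the older build rn6, so the positions hold for GRCr8 only. Of the 10 genes, 9 had an entry, and Hey1 had none. The 250 bases upstream of the annotated start are printed for the ligand Jag1, the gene with the largest fall, and for 3 of the targets, because Notch output is read through RBPJ sites and Hes and Hey repressors act through class C sites. Letters are written 5′ to 3′ on the strand of the gene, and capitals mark the motifs searched on both strands.

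Jag1, chr3:144894884-144895133, minus strand: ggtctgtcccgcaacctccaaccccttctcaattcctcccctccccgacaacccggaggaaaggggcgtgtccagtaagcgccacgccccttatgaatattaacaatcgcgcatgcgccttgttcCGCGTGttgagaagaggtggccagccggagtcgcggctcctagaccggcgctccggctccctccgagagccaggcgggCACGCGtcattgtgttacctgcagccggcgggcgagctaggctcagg

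Hes1, chr11:84213046-84213295, minus strand: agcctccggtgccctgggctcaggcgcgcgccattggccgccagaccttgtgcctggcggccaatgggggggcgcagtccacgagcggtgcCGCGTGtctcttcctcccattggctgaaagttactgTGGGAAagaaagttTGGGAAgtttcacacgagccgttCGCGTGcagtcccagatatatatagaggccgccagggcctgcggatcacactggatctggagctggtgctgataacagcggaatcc

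Hey2, chr1:28640850-28641099, plus strand: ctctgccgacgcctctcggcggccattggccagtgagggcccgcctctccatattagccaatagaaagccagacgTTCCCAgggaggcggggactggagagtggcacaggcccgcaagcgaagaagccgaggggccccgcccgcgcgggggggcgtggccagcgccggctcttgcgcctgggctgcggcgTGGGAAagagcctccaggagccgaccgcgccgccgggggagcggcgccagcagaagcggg

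Heyl, chr5:140793021-140793270, plus strand: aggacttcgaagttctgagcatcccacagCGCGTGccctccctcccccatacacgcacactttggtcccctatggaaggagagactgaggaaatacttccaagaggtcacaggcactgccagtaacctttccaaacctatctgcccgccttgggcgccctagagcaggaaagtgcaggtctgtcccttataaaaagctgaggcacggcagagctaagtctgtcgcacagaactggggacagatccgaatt

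In these windows capitals TGGGAA, or TTCCCA where the match is on the other strand, mark the core of the RBPJ site, and CACGCG, or CGCGTG on the other strand, marks the class C site. The RBPJ core was present in the promoters of 3 of the 9 genes (Dll1, Hes1 and Hey2), and 22.1% of the 33469 promoters in the reference held it. In Hes1, the classical Notch target, the matches began at positions −123 and −109 from the start, and in Hey2 at −175 and −60. The class C site was present in 5 of the 9 (Notch2, Jag1, Jag2, Hes1 and Heyl) against 7.14% of all promoters. Jag2 has 2 annotated starts and was counted because 1 of its windows held the site, whereas the share of all promoters counts each window. The TEAD core GGAATG was in none of the 9, with 12.1% of all promoters holding it, and the E box CACGTG was also in none, with 5.59%. A match is a stretch of letters in this window and was not tested as a binding site.

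Notch3, the receptor typical of mural cells, fell with Yap siRNA and with both siRNAs, and its level was highest with Wwtr1 siRNA. Its normalized counts were 17593, 16111 and 20416 with negative siRNA. They were 9076, 10614 and 13302 after Yap siRNA, so that every Yap siRNA library lay below every control. With Wwtr1 siRNA they were 22406, 24433 and 31288, all above the controls, and with both siRNAs 11222, 9971 and 9603, all below them. The mean fell by 39.0% with Yap siRNA, or on the log2 scale −0.72 (SE 0.15 and adjusted p = 0.0225 by limma). In the double knockdown it fell by 43.1%, a log2 fold change of −0.81 (SE 0.15 and adjusted p = 0.00179 by limma). The log2 difference for Wwtr1 siRNA was 0.52 (SE 0.15, 95% interval 0.19 to 0.85) and missed the threshold (limma adjusted p = 0.0529). With the replicate number as a block over the 3 groups outside the double knockdown, whose same-numbered libraries deviated together, it passed (limma adjusted p = 0.000538), and it also passed with the compared groups only, with a mean of at least 100, and without Yap siRNA replicate 1 or 3 or double knockdown replicate 3 (lowest limma adjusted p = 0.0338). The same-numbered ratios to control were 1.27, 1.52 and 1.53.

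The order of Notch3 from high to low by mean was Wwtr1 siRNA, negative siRNA, Yap siRNA and double knockdown. The Yap siRNA and Wwtr1 siRNA groups differed by −1.25 (SE 0.15 and adjusted p = 0.00093 by limma), and the double knockdown and Wwtr1 siRNA groups by −1.33 (SE 0.15 and adjusted p = 0.000251 by limma). The double knockdown and the Yap siRNA group could not be separated, with a difference of −0.08 (95% interval −0.41 to 0.25, limma adjusted p = 0.755). The call with Yap siRNA was lost without the variance trend and without negative siRNA replicate 1 or 3 or Yap siRNA replicate 1 or 2, where the log2 fold change was between −0.74 and −0.60 and the limma adjusted p reached 0.105. The double knockdown call held without each of the 12 libraries in turn, and without double knockdown replicate 3 it was −0.76 (limma adjusted p = 0.00517).

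Notch1, the receptor known best from endothelial and blood cells, was somewhat low in both single knockdowns and high when both siRNAs were given. It was at 1606, 1698 and 1701 normalized counts in the negative siRNA libraries, and at 2219, 2370 and 2491 in the double knockdown, where all libraries lay above all others. With Yap siRNA it was at 1226, 1330 and 1423, below every control, and with Wwtr1 siRNA at 1135, 1342 and 1635, where the highest library overlapped the controls. The rise in the double knockdown was 41.4%, a log2 fold change of 0.50 (SE 0.12 and adjusted p = 0.00622 by limma), and 0.46 without replicate 3 (limma adjusted p = 0.0176). The single knockdowns gave −0.33 (95% interval −0.58 to −0.08, limma adjusted p = 0.130) and −0.30 (95% interval −0.55 to −0.05, limma adjusted p = 0.138). With the replicate block over the 3 other groups both passed (limma adjusted p = 0.0247 and 0.0318). The Wwtr1 siRNA value also passed without Wwtr1 siRNA replicate 3, at −0.43 (limma adjusted p = 0.025). The double knockdown was 0.83 above Yap siRNA (limma adjusted p = 0.00108) and 0.80 above Wwtr1 siRNA (limma adjusted p = 0.000927).

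Notch2, which is widely expressed in stromal cells, was higher in the 2 groups that received Wwtr1 siRNA. It was at 6882, 8054 and 6720 normalized counts in the negative siRNA libraries and at 6396, 8429 and 7672 after Yap siRNA, which overlapped. It was at 8764, 9775 and 10098 after Wwtr1 siRNA and at 10643, 9765 and 8903 in the double knockdown, all above the controls. With Wwtr1 siRNA it rose by 0.41 on the log2 scale (SE 0.11 and adjusted p = 0.0413 by limma) and under both siRNAs by 0.44 (SE 0.11, limma adjusted p = 0.0101, or 0.50 and 0.00714 without double knockdown replicate 3). Between these groups the difference was 0.03 (95% interval −0.21 to 0.27, limma adjusted p = 0.870). The Wwtr1 siRNA call was lost without negative siRNA replicate 1 or 3, Yap siRNA replicate 3, any Wwtr1 siRNA replicate or double knockdown replicate 2, with log2 fold changes between 0.36 and 0.47 and a limma adjusted p of up to 0.142. It was also lost without the variance trend. The double knockdown call held without each library in turn. Yap siRNA differed from Wwtr1 siRNA by −0.35 (limma adjusted p = 0.069), which passed with the replicate block over the 3 groups outside the double knockdown (limma adjusted p = 0.00553).

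Jag1, a Jagged ligand of the receptors above, was low with each siRNA and lowest with both. Its values were 7094, 8567 and 10150 normalized counts in the negative siRNA libraries, 3272, 4396 and 5714 after Yap siRNA, and 4931, 5278 and 6786 after Wwtr1 siRNA. Both siRNAs together gave 2296, 2558 and 2240. No library of a single knockdown reached the lowest control, and every double knockdown library lay below every library of the other groups. The mean was 8604 ± 1528 with negative siRNA (SD, n = 3) and 2365 ± 169 in the double knockdown, where it fell by 72.5%.

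The log2 fold change of Jag1 was −0.97 with Yap siRNA (SE 0.19 and adjusted p = 0.0159 by limma) and −1.85 under both siRNAs (SE 0.19 and adjusted p = 4.34e-05 by limma). With Wwtr1 siRNA it was −0.60 (95% interval −1.01 to −0.19) and missed the threshold (limma adjusted p = 0.0712), but the same-numbered ratios to control were close together at 0.695, 0.616 and 0.669, and with the replicate block over the 3 groups outside the double knockdown it passed (limma adjusted p = 0.000272). It also passed without Yap siRNA replicate 1 or 3, with the lower limma adjusted p at 0.0363. The double knockdown was lower than Yap siRNA (−0.88, SE 0.19, limma adjusted p = 0.0106) and lower than Wwtr1 siRNA (−1.25, SE 0.19, limma adjusted p = 0.00125). The Yap and Wwtr1 siRNA groups, which overlapped, differed by −0.37 (95% interval −0.78 to 0.05, limma adjusted p = 0.257), and this difference passed with the block (limma adjusted p = 0.00512). The Yap siRNA call was lost without negative siRNA replicate 2 or 3 or Yap siRNA replicate 1 or 2, where the limma adjusted p reached 0.0767 and the log2 fold change was between −0.98 and −0.76. The double knockdown call held without each of the 12 libraries, and without double knockdown replicate 3 it was −1.81 (limma adjusted p = 0.000123).

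The other ligands were sparse. Dll1, a Delta-like ligand, was listed at 15.4, 0 and 0 normalized counts in the negative siRNA libraries, 20.5, 17.1 and 0 after Yap siRNA, 7.30, 18.4 and 9.15 after Wwtr1 siRNA, and 41.8, 46.0 and 64.1 under both siRNAs. The double knockdown libraries lay above all others. A listed 0 can be a failed estimate in this table, so the size of this difference is not fixed: its log2 fold change was 4.32 (SE 1.28) and ran from 2.13 to 6.54 with pseudocounts of 10 and 0.1. It is given as a description, with no p, because Dll1 entered the fit only through these high values. Leaving out double knockdown replicate 3 gave 4.14. Jag2 was at 59.5, 68.0 and 48.6 with negative siRNA, 78.9, 68.5 and 66.0 after Yap siRNA, 55.3, 55.1 and 49.8 after Wwtr1 siRNA, and 62.7, 155 and 73.7 under both siRNAs, where replicate 2 alone was high. Its log2 fold change in the double knockdown was 0.61 (95% interval −0.07 to 1.30, limma adjusted p = 0.156), and it fell to 0.22 without replicate 2 (limma adjusted p = 0.571). Without replicate 3 it was 0.75 (limma adjusted p = 0.117).

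Among the targets, Hey1 and Heyl went opposite ways in the double knockdown. Hey1, a repressor of the Hey family known from endothelium and the atrioventricular canal, was at 64.6, 49.98 and 43.4 normalized counts in the negative siRNA libraries. It was at 24.6, 33.2 and 25.1 after Yap siRNA and at 47.0, 36.7 and 38.6 after Wwtr1 siRNA. Both siRNAs gave 212, 198 and 183. The double knockdown libraries were far above all others, and the Yap siRNA libraries lay below every other one. The mean rose from 52.7 ± 10.9 to 198 ± 14.2 (SD, n = 3), 3.75-fold, with a log2 fold change of 1.91 (SE 0.25 and adjusted p = 0.000172 by limma), and 1.96 without replicate 3 (limma adjusted p = 0.000503). With Yap siRNA alone the log2 fold change was −0.90 (95% interval −1.44 to −0.36, limma adjusted p = 0.0626), which passed without the variance trend, and with Wwtr1 siRNA alone −0.35 (95% interval −0.89 to 0.19, limma adjusted p = 0.433). Against the single knockdowns the double knockdown was higher by 2.81 (limma adjusted p = 0.000121) and 2.26 (limma adjusted p = 0.000211).

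Heyl, the family member found with Notch3 in vascular smooth muscle, was at 7886, 5854 and 6310 normalized counts in the negative siRNA libraries and 7112, 6310 and 7861 after Wwtr1 siRNA. It was at 3157, 2830 and 4170 after Yap siRNA and 4149, 3300 and 4737 in the double knockdown. The libraries that received Yap siRNA, alone or combined, all lay below those that did not. The mean fell by 49.3% with Yap siRNA, or on the log2 scale −0.99 (SE 0.17 and adjusted p = 0.00921 by limma), and in the double knockdown it fell by 39.2%, or −0.72 (SE 0.17 and adjusted p = 0.00629 by limma). With Wwtr1 siRNA it was 0.09 (95% interval −0.27 to 0.46, limma adjusted p = 0.791). Yap siRNA differed from Wwtr1 siRNA by −1.08 (limma adjusted p = 0.00351) and the double knockdown from Wwtr1 siRNA by −0.81 (limma adjusted p = 0.00606), while double knockdown and Yap siRNA differed by 0.27 (95% interval −0.10 to 0.63, limma adjusted p = 0.320). The Yap siRNA call was lost without Yap siRNA replicate 1, at −0.95 (limma adjusted p = 0.0506), and the double knockdown value without replicate 3 was −0.84 (limma adjusted p = 0.00341).

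Hey2, known from ventricular muscle and arteries, was at 1316, 857 and 1150 normalized counts in the negative siRNA libraries, 736, 604 and 971 after Yap siRNA, 1060, 879 and 1169 after Wwtr1 siRNA, and 804, 564 and 702 under both siRNAs. Only the double knockdown libraries lay wholly below the controls. The log2 fold change there was −0.68 (SE 0.20 and adjusted p = 0.0242 by limma). It was lost without negative siRNA replicate 1 or 3 or double knockdown replicate 2, with a limma adjusted p of up to 0.093, and without double knockdown replicate 3 it was −0.70 (limma adjusted p = 0.0365). With Yap siRNA the value was −0.53 (95% interval −0.97 to −0.09, limma adjusted p = 0.171), which passed with the replicate block over the 3 other groups (limma adjusted p = 0.0084), and with Wwtr1 siRNA it was −0.08 (limma adjusted p = 0.845). The difference of −0.44 between Yap and Wwtr1 siRNA (limma adjusted p = 0.203) also passed with that block (limma adjusted p = 0.015).

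Hes1, the classical Notch target whose promoter carries the pair of RBPJ cores shown above, had the smallest log2 fold change of the 4 targets in the double knockdown. It was at 2920, 2465 and 2562 normalized counts in the negative siRNA libraries, 3092, 2948 and 2665 after Yap siRNA, 2237, 2230 and 2074 after Wwtr1 siRNA, and 2062, 2142 and 2587 under both siRNAs. The Wwtr1 siRNA libraries lay below every control. In the double knockdown replicate 3 alone was within the control range. The log2 fold changes against control were 0.13 (limma adjusted p = 0.507), −0.28 (95% interval −0.49 to −0.06, limma adjusted p = 0.109) and −0.23 (95% interval −0.45 to −0.02, limma adjusted p = 0.0948) with Yap, Wwtr1 and both siRNAs. Without double knockdown replicate 3 the last of these passed, at −0.33 (limma adjusted p = 0.0165), and the Wwtr1 siRNA value passed too (limma adjusted p = 0.0485), as it did with the block over the 3 other groups (limma adjusted p = 0.0127). Hes1 was higher with Yap than with Wwtr1 siRNA by 0.41 (SE 0.10 and adjusted p = 0.0259 by limma), a call lost without Yap siRNA replicate 1 or 2 or any Wwtr1 siRNA replicate, with a limma adjusted p of up to 0.096. The double knockdown differed from Yap siRNA by −0.36 (limma adjusted p = 0.0318), a call lost without replicate 1 or 2 of either group, with a limma adjusted p of up to 0.109, and also lost with the compared groups only and without the variance trend.

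Over the 10 genes, 5 differed between double knockdown and Yap siRNA (3 higher and 2 lower, with 13.8% of all genes passing, 6.83% higher and 6.96% lower). Of these, Notch2 was 0.39 higher (limma adjusted p = 0.0383), and this call was lost without negative siRNA replicate 1, Yap siRNA replicate 1 or 3, Wwtr1 siRNA replicate 2, or double knockdown replicate 1 or 2, with a limma adjusted p of up to 0.125, as well as with the compared groups only and without the variance trend. Between double knockdown and Wwtr1 siRNA 5 differed as well (2 higher and 3 lower, with 19.9% of all genes passing, 9.75% higher and 10.1% lower), and their calls held without each of the 12 libraries in turn. Between the single knockdowns 3 differed (1 higher and 2 lower with Yap siRNA, with 8.79% of all genes passing, 4.57% higher and 4.22% lower). With the replicate block over the 3 groups outside the double knockdown 6 differed, against 22.6% of all genes. Hes1 was then higher with Yap siRNA, and Notch2, Notch3, Heyl, Jag1 and Hey2 were lower.

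The calls of the double knockdown against each single knockdown also passed without double knockdown replicate 3. Against Yap siRNA the log2 differences were then 0.79 for Notch1, 0.45 for Notch2, −0.84 for Jag1, −0.46 for Hes1 and 2.86 for Hey1. Against Wwtr1 siRNA they were 0.76 for Notch1, −1.28 for Notch3, −1.21 for Jag1, 2.31 for Hey1 and −0.93 for Heyl.

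The effect of giving both siRNAs differed from the sum of the single effects for Notch1 and Hey1. This was tested as an interaction, the double knockdown minus Yap siRNA minus Wwtr1 siRNA plus negative siRNA on the log2 scale, which is 0 where the effects add up. For Hey1 the single effects summed to −1.25 and the double knockdown was at 1.91, an interaction of 3.16 (SE 0.35, 95% interval 2.39 to 3.92, limma adjusted p = 0.00518). For Notch1 they summed to −0.63 and the double knockdown was at 0.50, an interaction of 1.13 (SE 0.16, 95% interval 0.78 to 1.49, limma adjusted p = 0.0103). Both lay on the other side of control from their single knockdowns. These 2 of the 10 genes passed, both higher, where 1.03% of all genes passed (0.421% higher and 0.607% lower). Both calls held without each of the 12 libraries, and without double knockdown replicate 3 the interactions were 3.21 and 1.09 (limma adjusted p = 0.00875 and 0.0161).

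For the other 8 genes the interaction did not pass. Jag1 had a sum of −1.57 beside −1.85 observed, an interaction of −0.28 (95% interval −0.86 to 0.30, limma adjusted p = 0.709). Heyl had −0.90 beside −0.72, and Hey2 −0.61 beside −0.68. Notch2 had 0.46 beside 0.44, and its interaction of −0.02 had a 95% interval of −0.36 to 0.32. Notch3, for which the single siRNAs pointed opposite ways, had a sum of −0.20 beside −0.81, an interaction of −0.61 (95% interval −1.07 to −0.14, limma adjusted p = 0.221).

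**Figure D3:**
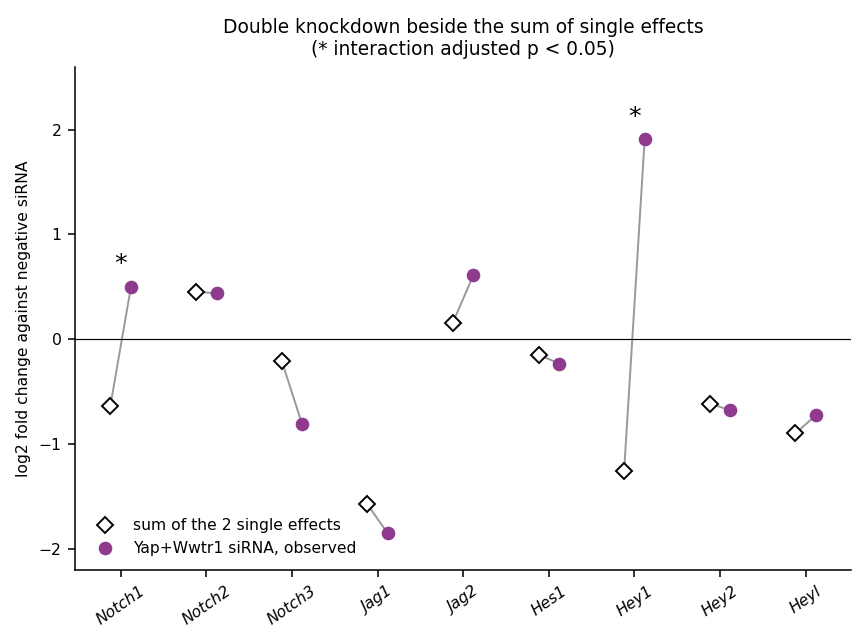
Log2 fold change against negative siRNA (vertical axis) of 9 Notch genes (Dll1 left out because some of its libraries are listed at 0). Open diamonds are the sum of the fold changes with Yap siRNA alone and Wwtr1 siRNA alone, filled circles are the double knockdown, and stars mark genes whose interaction passed at an adjusted p of 0.05. The gap is widest for Hey1 (−1.25 to 1.91) and next for Notch1 (−0.63 to 0.50).

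Other genes of the pathway were read from 5 lists that hold 73 genes in all, of which 60 were listed in the table and 59 were tested. In the double knockdown 12 were higher, 6 were lower and 41 did not pass, against 4 higher and 1 lower with Yap siRNA and 5 higher and 2 lower with Wwtr1 siRNA. Those shares are read beside the same 32.8%, 4.8% and 8.96% of all genes given above, and that in the double knockdown was no larger. The double knockdown counts for each list below are read beside the 17.1% of all genes that were higher and the 15.6% that were lower. All these counts are from the fit without a replicate block. None of the 4 other receptors and ligands tested (Notch4 among them) passed against control in any of the 3 comparisons.

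Of the 14 genes that process or glycosylate the receptors, 3 were higher in the double knockdown and none was lower. Adam17, a protease that can cut Notch at the cell surface, was at 3328 to 3736 normalized counts in the negative siRNA libraries and at 7520, 6894 and 5842 in the double knockdown, with no overlap. Its log2 fold change was 0.95 (SE 0.10 and adjusted p = 4.48e-05 by limma). Furin, the convertase that trims Notch precursors, rose from 8642 to 9851 in the controls to 13948 to 16714, a log2 fold change of 0.71 (SE 0.08 and adjusted p = 8.87e-05 by limma). Psen2, a catalytic subunit of gamma-secretase, was at 1581 to 2143 with negative siRNA, 2311 to 3037 with Yap siRNA, 2288 to 2643 with Wwtr1 siRNA and 1346 to 1699 under both siRNAs. Its interaction was −1.22 (SE 0.19 and adjusted p = 0.0151 by limma) and its log2 fold change with Yap siRNA 0.53 (limma adjusted p = 0.0449). The interaction of Adam17 was 0.77 (limma adjusted p = 0.026), but it was called in only 4 of the 12 fits that left out a library.

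In the nuclear complex and its corepressors, 3 of 16 genes were higher and 3 lower in the double knockdown. Cir1, a corepressor that binds RBPJ, was at 499 to 571 with negative siRNA and 695 to 834 with both siRNAs (log2 fold change 0.49, SE 0.10, limma adjusted p = 0.00288). Ctbp2, another corepressor, was at 1961 to 2320 and at 1649 to 1674 (−0.39, SE 0.08, limma adjusted p = 0.00385). Hdac1, a histone deacetylase, fell by 0.45 on the log2 scale (SE 0.12 and adjusted p = 0.0157 by limma), a call lost without negative siRNA replicate 3 or double knockdown replicate 1, where it was −0.33 (limma adjusted p = 0.063) without the latter. No gene of this list passed for the interaction.

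Of the 12 endocytic and ubiquitin regulators, 2 were higher and none lower. Dtx3l, a Deltex-family ubiquitin ligase that is also induced by interferon, was at 166 to 358 with negative siRNA, 686 to 1610 with Yap siRNA, 705 to 1721 with Wwtr1 siRNA and 1851 to 2501 with both. It passed in all 3 comparisons, with log2 fold changes of 2.15, 2.30 and 3.14 (limma adjusted p = 0.0121, 0.00395 and 0.000131). Dtx2, another Deltex ligase, was higher in the double knockdown by 0.44 (SE 0.09 and adjusted p = 0.00307 by limma), and the double knockdown also exceeded Yap siRNA by 0.38 (limma adjusted p = 0.0175) and Wwtr1 siRNA by 0.46 (limma adjusted p = 0.00464).

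Of the 13 other targets and feedback genes, 4 were higher and 3 lower in the double knockdown. Sox9, a transcription factor of cartilage and valve cells, was at 4683 to 6549 with negative siRNA and 2408, 3682 and 1736 with both siRNAs (−1.11, SE 0.25, limma adjusted p = 0.00599). Gata2, a factor of blood and endothelial cells, was at 53.7 to 87.0 and at 128, 199 and 227 (1.42, SE 0.27, limma adjusted p = 0.00206). Id1, an inhibitor of helix-loop-helix factors, was higher by 0.72 (SE 0.14 and adjusted p = 0.00216 by limma). Ccnd1, the cell cycle gene for cyclin D1, was higher with Yap siRNA (0.59), with Wwtr1 siRNA (1.09) and with both (0.50), so that its interaction was −1.19 (SE 0.15 and adjusted p = 0.00524 by limma). Efnb2, an arterial ephrin ligand, was at 351 to 469 with negative siRNA, 458 to 620 with Yap siRNA, 557 to 673 with Wwtr1 siRNA and 224 to 330 with both, with an interaction of −1.59 (SE 0.24 and adjusted p = 0.0151 by limma).

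Without double knockdown replicate 3 each of these named pathway genes passed against control or for the interaction, as listed next. The comparisons of Dtx2 with the single knockdowns are not given for that fit. Their log2 fold changes against control were then 1.05 for Adam17, 0.78 for Furin, 0.56 for Cir1, −0.39 for Ctbp2, −0.55 for Hdac1, 3.28 for Dtx3l, 0.38 for Dtx2, 1.25 for Gata2, −0.85 for Sox9 and 0.84 for Id1. The interactions were −1.12 for Psen2, 0.87 for Adam17, −1.13 for Ccnd1 and −1.45 for Efnb2.

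**Figure D4:**
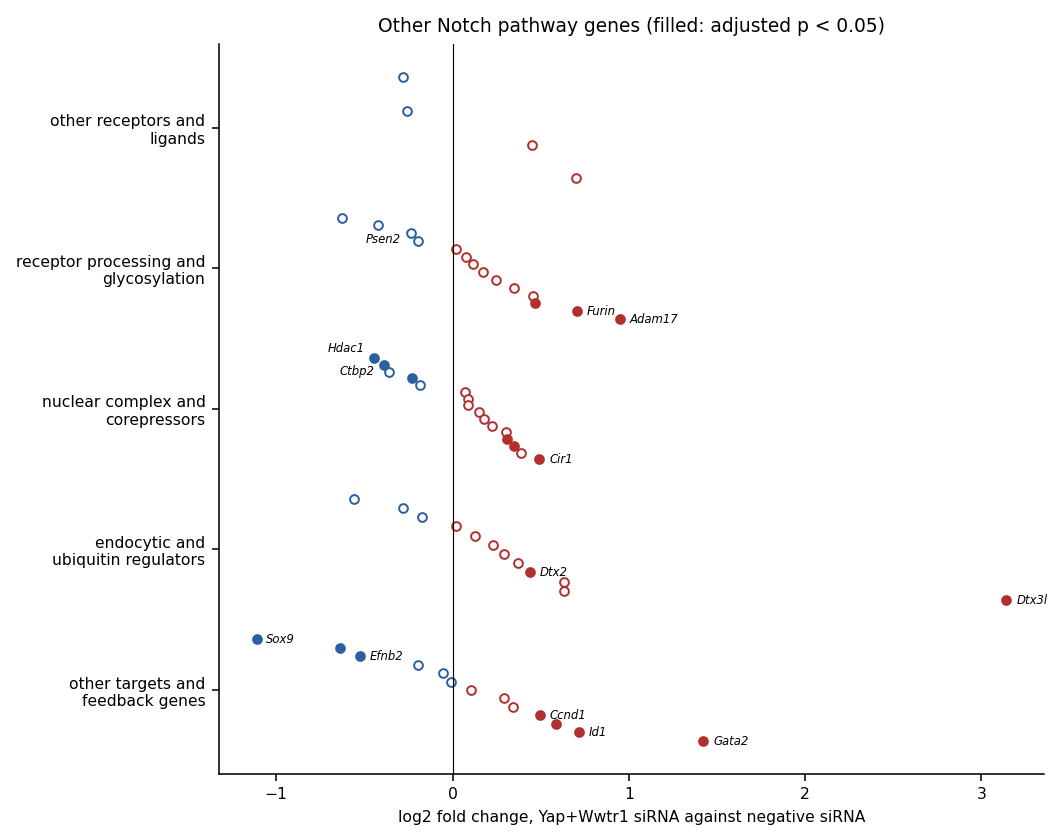
Log2 fold change in the double knockdown against negative siRNA (horizontal axis) of 59 other Notch pathway genes in 5 lists (vertical axis; spread within a list by rank). Red points lie above 0 and blue points below, and filled points passed at an adjusted p of 0.05. Labelled are the genes named in the text, and Dtx3l stands farthest to the right at 3.14 and Sox9 farthest to the left at −1.11.

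Markers of other cell types also differed between the groups. The counts of markers called in the double knockdown are read beside the 17.1% of all genes that were higher there and the 15.6% that were lower. They are not given without replicate 3, where the fibroblast marker Lum was at 27679 (9037 and 8338 in replicates 1 and 2). Dcn was at 51879 there (19496 and 16321 in replicates 1 and 2). The 8 fibroblast markers were listed in every group, with sums of 2777265 to 3271090 normalized counts in the negative siRNA libraries, 3505115 to 3665670 with Yap siRNA, all above the controls, 2794296 to 3006107 with Wwtr1 siRNA and 2562974 to 3769686 in the double knockdown, where 4 of the 8 were higher (Pdgfra, Dcn, Lum and Postn) and 2 lower (Col1a2 and Tcf21). The summed level of 10 endothelial markers was 1318 to 1721 with negative siRNA, 1837 to 2162 with Yap siRNA, 1797 to 1920 with Wwtr1 siRNA and 2222 to 3003 under both siRNAs, where 6 of the 10 were higher (Cdh5, Kdr, Tek, Vwf, Erg and Esam). Of the rest, Egfl7 was at 214, 259 and 269 in the double knockdown, below all its controls (274 to 357). Pecam1 and Tie1 exceeded all their controls only in double knockdown replicate 3. Emcn was listed at 0 in 7 libraries, among them negative siRNA replicates 2 and 3 and double knockdown replicate 2. Hey1 and Notch1 were also higher in the double knockdown, as were some markers of the fibroblast, smooth muscle and pericyte, and cardiomyocyte lists. With each single siRNA the endothelial sums lay above the controls, while Hey1 and Notch1 did not. A link between them was not tested. Smooth muscle and pericyte markers, without Notch3, summed to 98135 to 101503 with negative siRNA, 84090 to 89014 with Yap siRNA, 121990 to 123057 with Wwtr1 siRNA and 88045 to 112195 under both siRNAs. Pdgfrb made up most of this sum in every library. In the fit without a replicate block, of the 7 genes only Pdgfrb passed with Wwtr1 siRNA (higher) and 0 passed with Yap siRNA, by limma. The markers were not read out with the block. In the double knockdown 3 of these 7 were higher (Rgs5, Kcnj8 and Abcc9) and 1 was lower (Mcam). Cardiomyocyte markers summed to 41844 to 73285 with negative siRNA, 49099 to 81273 with Yap siRNA, 44473 to 82308 with Wwtr1 siRNA and 68419 to 91327 under both siRNAs, with 3 of 9 higher (Myh6, Tnni3 and Myl2). Macrophage markers summed to 12877 to 18390 with negative siRNA, 11184 to 16907 with Yap siRNA, 7520 to 11487 with Wwtr1 siRNA, all below the controls, and 4261, 8395 and 27589 under both siRNAs, where 1 of 9 (Cx3cr1) was lower. The part of these cells in the Notch gene results was not tested, and in bulk RNA fewer cells of a type and less RNA per cell cannot be told apart.

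**Figure D5:**
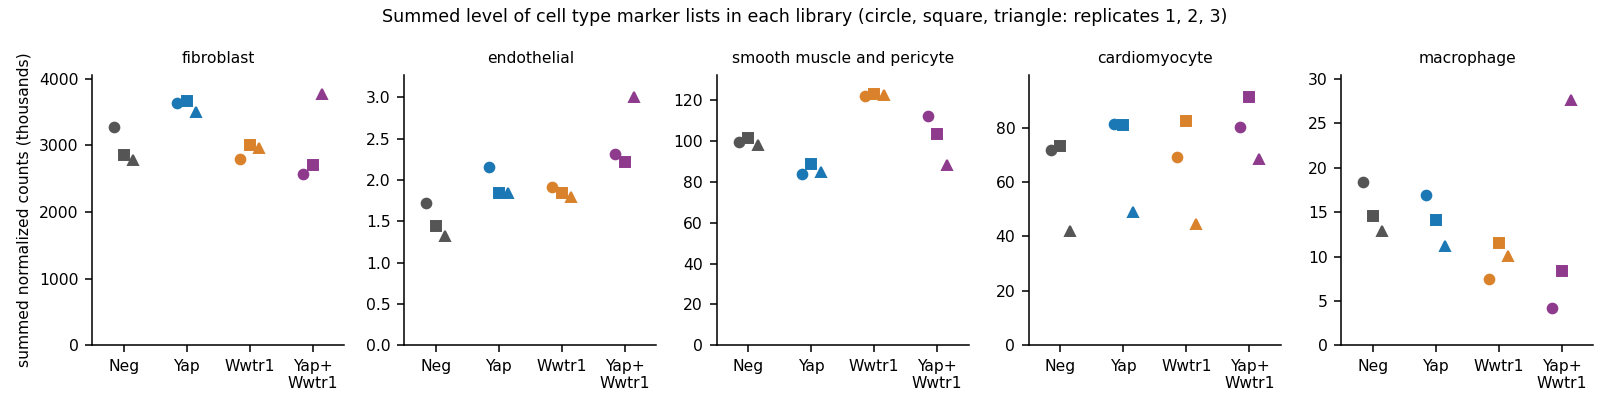
Summed normalized counts, scaled as the axes state (vertical axes, from 0), of 5 cell type marker lists in each library of the 4 siRNA groups. Circles, squares and triangles are replicates 1, 2 and 3. The endothelial sums of the double knockdown all lie above those of the other groups, the smooth muscle and pericyte sums are highest with Wwtr1 siRNA, and double knockdown replicate 3 is the highest macrophage sum.

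The genes most like the receptor, ligand and target of highest mean normalized count across the 12 libraries were ranked among 10102 genes by Pearson's r of log2 values, as a description. The points share libraries and groups. Notch3 was most like Rad23b (r = 0.984), Hspd1 (0.963) and Nop16 (0.963). Jag1 was most like Il15 (0.991), Rock2 (0.989) and Plekhg2 (0.984). Heyl was most like Mmgt2 (0.942), Yap1 (0.928) and Eif1ax (0.926).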

How the data were processed

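RNA from 12 cultures of neonatal rat cardiac fibroblasts (4 siRNA groups of 3) had been sequenced. Per the submitters' processing notes and the study's methods, the authors trimmed reads with Trim Galore 0.6.5, aligned them to rn6 with HISAT2, assembled with StringTie and normalized with DESeq2. The deposited signal values are counts divided by a size factor for each library. Of the 147252 values, 100% were whole multiples of a step for each library (within 0.001 of a whole number), and the recovered totals ran from 33.9 to 41.1 M counts. Whether such a count is a read, a mate or derived from coverage is not known, and whether counting used strand is not stated. The authors' fold changes and p-values, also deposited, were not used.

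From there, log2(normalized count + 1) was fitted with limma 3.58.1 in R 4.3.3 (eBayes with trend, no covariate, all 12 libraries, two-sided) for the 11871 genes with a mean of at least 10, with Benjamini-Hochberg adjustment over all of them and a threshold of 0.05. All 10 Notch genes passed this filter, Dll1 only through the double knockdown libraries. Fold changes are on this scale, where those of low genes depend on the pseudocount: the pseudocount shrinks them in general, but that of Dll1, with controls listed at 0, exceeds the ratio of its group means. The depth sets their precision, with Dll1 at at most 64.1 normalized counts. Same-group libraries differed by more than sampling noise (chi-square per gene at least 20.0), and no pair was counted as 1 sample. The same-numbered libraries of the negative, Yap and Wwtr1 siRNA groups deviated together (9 correlations, 0.104 to 0.276), so the numbers pair these groups. For the 10 Notch genes blocked values are given where they change a call. Calls of the other pathway genes and the markers are from the fit without the block only. With the double knockdown the correlations were −0.127 to 0.180. On simulated data with 200 of 11871 genes changed, the fit recovered 97% of changes of size 1 (log2) for Yap siRNA and 77% for the interaction. The simulation gave all genes the same spread and drew independent libraries with none standing apart, so these rates need not hold for the real libraries.

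The Notch genes and the pathway and marker lists were chosen with earlier results of these data known. Named were all 10 genes, Yap1, Wwtr1 and, of each list, up to 3 of the largest changes in the double knockdown that passed without overlap at a mean of at least 100, plus any that passed for the interaction, and the 3 genes most correlated with 1 gene of each role. Of the genes this rule takes, 1 is not reported here. The alternatives tried were other pseudocounts, filters and scalings, the compared groups only, replicate blocks, no trend, and leaving out each library.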

Additional observations from a re-analysis of the deposited data

Results flagged for a closer look

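For Hey1 and Notch1 the effect of Wwtr1 siRNA with Yap siRNA present differed from its effect without it, by the interaction test, which is what singled them out. The difference was 3.16 on the log2 scale for Hey1 (SE 0.35, limma adjusted p = 0.00518) and 1.13 for Notch1 (SE 0.16, limma adjusted p = 0.0103). Wwtr1 siRNA alone left Hey1 at 36.7 to 47.0 normalized counts against 43.4 to 64.6 in the controls, while on top of Yap siRNA it went with 183 to 212 against 24.6 to 33.2. For Notch1 the corresponding values were 1135 to 1635 against 1606 to 1701, and 2219 to 2491 against 1226 to 1423. No formal test for an outlying library was run within groups of 3.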

How the results depend on the processing

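The calls of the double knockdown against negative siRNA (8 of 10 genes with Dll1, 7 of 9 without it) ranged from 6 to 9 with Dll1 and from 6 to 8 without it when each library was left out and those of the double knockdown against Wwtr1 siRNA (5) from 5 to 6. Against Yap siRNA 5 became 3 with the compared groups only, 3 without the trend, and 3 to 5 with a library left out. With Yap siRNA the 3 calls became 5 with either replicate block (all libraries, or without the double knockdown libraries) and 0 to 3 with a library left out, 0 without Yap siRNA replicate 1, and stayed 3 without the trend, where Notch3 was lost and Hey1 gained. With Wwtr1 siRNA the 1 call became 2 with a mean of at least 100, 3 with the compared groups only, 4 with the replicate block, 5 with the block without the double knockdown libraries, 0 without the trend, and 0 to 3 with a library left out. Between the single knockdowns 3 became 6 with the block without the double knockdown libraries, against 22.6% of all genes (8.79% in the main fit). It became 2 to 3 with a library left out. The 2 interaction calls became 1 with a mean of at least 100, because Hey1 was no longer tested, and stayed 2 without each library. The correlations with the double knockdown libraries (−0.127 to 0.180) do not settle whether their numbers pair them with the other groups. Their blocked values are therefore given here: the replicate block added Hey2 against Wwtr1 siRNA (−0.59, limma adjusted p = 0.00608) and changed no other call of that group. Of the calls among the other groups, those changed are given beside the results, and a block changed no other. Direction reversed for Notch2 with Yap siRNA (−0.039 without Yap siRNA replicate 2, and up to 0.16 with another library left out) and for Hey2 with Wwtr1 siRNA (0.051 without negative siRNA replicate 1 and 0.03 without Wwtr1 siRNA replicate 2; −0.26 to 0.05), neither of which passed. Of the other differences that missed the threshold, those with a sign that turned when a library was left out were, against Yap siRNA, the double knockdown values of Notch3 (−0.21 to 0.061), Jag2 (−0.061 to 0.58) and Hey2 (−0.31 to 0.034), and against Wwtr1 siRNA those of Notch2 (−0.031 to 0.097) and Hes1 (−0.052 to 0.11). Between the single knockdowns they were Notch1 (−0.16 to 0.10) and Dll1 (−1.47 to 0.75), and for the interaction Notch2 (−0.13 to 0.071), Hey2 (−0.22 to 0.12) and Dll1 (−0.85 to 1.36, and −0.41 with a pseudocount of 0.1). Of 1780 values under alternatives over 85 results, 1665 kept their direction and side of the threshold, 56 lost and 33 gained a call, and 26 reversed. The cause was not tested for the others.

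Over all genes, Yap siRNA calls went from 570 to 874 with the block, 1904 with the block without the double knockdown libraries, 294 without the trend and 111 to 764 with a library left out. Wwtr1 siRNA calls went from 1064 to 2527 with that smaller block and 548 to 1419 with a library left out, and those between the single knockdowns from 1044 to 2680 and 434 to 1409. Double knockdown calls went from 3888 against negative siRNA to 2745 to 4054 with a library left out. Those against Yap siRNA went from 1637 to 774 with the compared groups only and 758 to 1873 with a library left out, those against Wwtr1 siRNA from 2359 to 1288 to 2340, and interaction calls from 122 to 231 with the block, 60 without the trend and 31 to 160. Scaling moved the median by at most 0.039. The planned count-based fits (edgeR and DESeq2) were not run.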
